A study of Mus musculus with 6 samples.

Results

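Prostanoids are short-lived lipid signals that cells make from arachidonic acid, and 10 mouse genes for their receptors and synthases were followed here in sorted vascular smooth muscle cells. The members were selected by gene symbol, 7 receptors (Ptgir, Ptger1, Ptger2, Ptger3, Ptger4, Tbxa2r and Ptgfr) and 3 enzymes (Ptgs1, Ptgis and Ptges), out of 32179 genes in the table. The choice was made with earlier results of the same control against knockout comparison known, so the members' values in that comparison are given as a description, and the calls of the fit over all genes are only counted beside their share over all genes. All 10 symbols matched 1 row each. The cells came from skeletal muscle vessels of male C57BL6J mice aged 8 to 24 weeks, all Gprc5c-floxed per their source labels, given tamoxifen and carrying mTmG, a reporter allele that switches to EGFP after Cre recombination; EGFP-positive cells were sorted in both groups. The 3 control libraries have the genotype label wild type, and the 3 libraries labelled iSM-G5C-KO (KO below) come from mice in which the orphan receptor GPRC5C was depleted in smooth muscle. The sources used here give neither the promoter that drives Cre nor whether each library is a separate animal, so replicate spread may be partly technical. The comparison addresses what GPRC5C loss does to the transcriptome of vascular smooth muscle. Before sorting, cells with CD31, CD45 or Ter119 (endothelial, leukocyte and erythroid surface markers) were depleted.

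Cyclooxygenases turn arachidonic acid into prostaglandin H2, from which terminal synthases make prostacyclin, prostaglandin E2, thromboxane and other products. Smooth muscle reads them through G protein-coupled receptors. Receptors that act through Gs raise cAMP and relax the muscle, while those that act through Gq, G12 or Gi favour contraction.

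The libraries held an estimated 1479598 to 2935114 reads, and control library 3 stood apart with 29707 genes above 0 against 20481 to 21179 in the others. Normalised counts, the unit throughout, are whole numbers scaled by the depositors for library depth. Gprc5c, the targeted gene, read 428, 532, 497 normalised counts for control libraries 1, 2, 3 versus 328, 305, 360 for KO libraries 1, 2, 3, the order used for every gene below. Its KO mean was 68.2% of the control mean, with an exact permutation p of 0.1, the smallest that 3 against 3 libraries allow. Smooth muscle markers were abundant in every library (Myh11 3883 to 4940, Acta2 995 to 1260), and so were pericyte markers (Pdgfrb 1520 to 2899). In bulk RNA, fewer cells of a type and less RNA per cell cannot be told apart.

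The gene set spreads over 7 chromosomes, with Ptgs1, Ptgis and Ptges on chromosome 2 and Ptger3 and Ptgfr on chromosome 3 (GRCm38). Ptgir (ENSMUSG00000043017), the prostacyclin receptor gene, occupies chr7:16906490-16910905, plus strand. Ptger1 (ENSMUSG00000019464) occupies chr8:83666678-83672753, plus strand. The strand setting of the counting step is not stated in what was used here, and the Ptger1 values are uncertain. Ptgis shares 156 exon bases with 1110018N20Rik on the other strand, which was at 17 to 39. In the KEGG terms the table carries, the 7 receptors share neuroactive ligand-receptor interaction, the 3 enzymes share arachidonic acid metabolism, and Ptgir, Tbxa2r and Ptgs1 share platelet activation.

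The promoters of the 3 Gs-coupled receptor genes are shown because the genes share a signalling arm while only Ptgir had groups that did not overlap. Each run holds the 250 bases upstream of the RefSeq start site (GRCm38.p6), 5′ to 3′ on the gene's strand, with the GC box GGGCGG, on either strand, in capitals. Ptgir covers chr7:16906240-16906489 on the plus strand, Ptger4 chr15:5244188-5244437 on the minus strand and Ptger2 chr14:44987861-44988110 on the plus strand.
Ptgir: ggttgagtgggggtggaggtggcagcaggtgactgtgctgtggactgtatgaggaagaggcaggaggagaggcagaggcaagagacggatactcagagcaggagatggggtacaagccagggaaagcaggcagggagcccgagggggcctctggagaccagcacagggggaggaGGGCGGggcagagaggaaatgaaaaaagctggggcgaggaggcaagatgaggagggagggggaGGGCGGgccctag
Ptger4: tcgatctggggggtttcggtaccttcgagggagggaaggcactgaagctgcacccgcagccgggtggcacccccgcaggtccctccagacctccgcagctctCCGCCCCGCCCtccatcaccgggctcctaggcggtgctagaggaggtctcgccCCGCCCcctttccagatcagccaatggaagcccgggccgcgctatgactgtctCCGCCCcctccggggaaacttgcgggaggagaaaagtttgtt
Ptger2: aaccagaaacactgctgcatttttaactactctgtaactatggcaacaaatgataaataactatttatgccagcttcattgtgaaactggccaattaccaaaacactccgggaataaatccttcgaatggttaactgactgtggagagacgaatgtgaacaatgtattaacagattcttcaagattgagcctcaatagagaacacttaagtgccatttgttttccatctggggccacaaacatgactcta
The Ptgir window holds 2 GC boxes, the Ptger4 window 4, of which a pair overlaps by a base, and the Ptger2 window 0. The RefSeq start site of Ptger2, at 44988111, lies upstream of the gene start at 44988195. The bases after it were not found in a GENCODE transcript of the gene, while those of Ptgir and Ptger4 were. The Ptger2 window is thus less certain. Among 32851 RefSeq promoter windows of this length, 32.7% hold a GC box. Ptgir and Ptger4 are 63.6% and 66.8% G or C, Ptger2 is 38.0%, and the median over all windows is 52.4%. The cAMP response element TGACGTCA, which 1.55% of all windows hold, had no match in any window of the 8 members found in the table. The CArG box, bound by serum response factor, is held by 1.47% of windows and had no match in the members either.

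Ptgir, whose product couples prostacyclin to Gs, was the receptor whose KO values all lay above its control values. Control libraries 1, 2, 3 read 134, 150, 180 normalised counts, versus 194, 238, 274 for KO libraries 1, 2, 3. Every KO library was above every control library. The means were 154.7 ± 23.4 and 235.3 ± 40.1 (SD, n = 3 each), a KO level of 1.52 times the control level. On the log2(value + 1) scale the difference was 0.60 with a standard error of 0.17. The KO level was 1.45, 1.59 and 1.52 times the control level for numbers 1, 2 and 3, so the ratios lay close together. With the replicate number as a block the standard error was 0.096. These values rest on an estimated 136 to 258 reads per library.

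The other Gs-coupled receptors did not share this pattern. Ptger4 (ENSMUSG00000039942, chr15:5233399-5244187, minus strand), for the prostaglandin E2 receptor EP4, read 41, 29, 60 in controls versus 40, 33, 60 in KO libraries. Libraries of the same number lay within 4 counts of each other, and the log2 difference was 0.05 with a standard error of 0.32. Ptger2 (ENSMUSG00000037759, chr14:44988195-45003820, plus strand), for the related receptor EP2, read 14, 24, 28 in controls versus 9, 25, 35 in KO libraries. The groups overlapped fully, with a log2 difference of -0.07 and a standard error of 0.51. Whether their differences depart from that of Ptgir was not tested.

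Ptgfr (ENSMUSG00000028036, chr3:151796502-151837630, minus strand), for the Gq-coupled receptor of prostaglandin F2α that contracts smooth muscle, was the receptor whose KO values all lay under its control values. It read 13, 12, 16 in controls versus 8, 5, 11 in KO libraries. The means were 13.7 ± 2.08 and 8.0 ± 3.0 (SD, n = 3 each), with a log2 difference of -0.75 and a standard error of 0.41. The margin between the groups was 1 normalised count, and the libraries held an estimated 5 to 17 reads of the gene. Counting error is large at this depth. The mean of Ptgfr over all libraries was 10.8, just above the minimum mean for the fit. Its KO mean of 8.0 lay under that minimum, so the gene entered the fit through its control values. Of its exon bases, 329 are shared with Gm43618 on the other strand, listed at 0 to 4.

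Tbxa2r (ENSMUSG00000034881, chr10:81328731-81335172, plus strand), for the thromboxane A2 receptor, a strong vasoconstrictor receptor, read 45, 42, 32 in controls versus 47, 29, 20 in KO libraries. The pairs numbered 2 and 3 had lower KO values and the pair numbered 1 did not. Its log2 difference was -0.37 with a standard error of 0.33. Ptger3 (ENSMUSG00000040016, chr3:157566892-157645888, plus strand), for the Gi-coupled receptor EP3, read 55, 59, 32 in controls versus 55, 22, 29 in KO libraries. The mean difference of -0.51 on the log2 scale, with a standard error of 0.38, came almost wholly from the pair numbered 2, where it was -1.38. It was -0.07 with both libraries numbered 2 left out and the replicate block. Ptger1, for the Gq-coupled receptor EP1, read 14, 14, 12 in controls versus 13, 29, 14 in KO libraries. KO library 2 stood alone, and without it the log2 difference of 0.37 was 0.02.

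Among the enzymes, Ptgis (ENSMUSG00000017969, chr2:167191805-167240604, minus strand), for prostacyclin synthase, had the highest values. It read 94, 156, 101 in controls versus 114, 78, 77 in KO libraries. The pair numbered 1 was higher in the KO library and the pairs numbered 2 and 3 were lower, with control library 2 the highest of all. The means were 117 ± 34.0 and 89.7 ± 21.1 (SD, n = 3 each), and the log2 difference was -0.37 with a standard error of 0.24. It was -0.14 without control library 2 and -0.06 with both libraries numbered 2 left out and the block.

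Ptgs1 (ENSMUSG00000047250, chr2:36230426-36252272, plus strand), for the constitutive cyclooxygenase COX-1, read 11, 5, 7 in controls versus 7, 32, 10 in KO libraries. Its log2 difference of 0.78, with a standard error of 0.61, was 0.17 without KO library 2. The gene passed the filter on low values, a mean of at least 10 over all libraries, only through that library. Ptges (ENSMUSG00000050737, chr2:30889471-30903297, minus strand), for a membrane-bound prostaglandin E synthase, read 24, 38, 49 in controls versus 18, 49, 45 in KO libraries, with a log2 difference of -0.05 and a standard error of 0.43. Its groups overlapped fully.

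**Figure D1:**
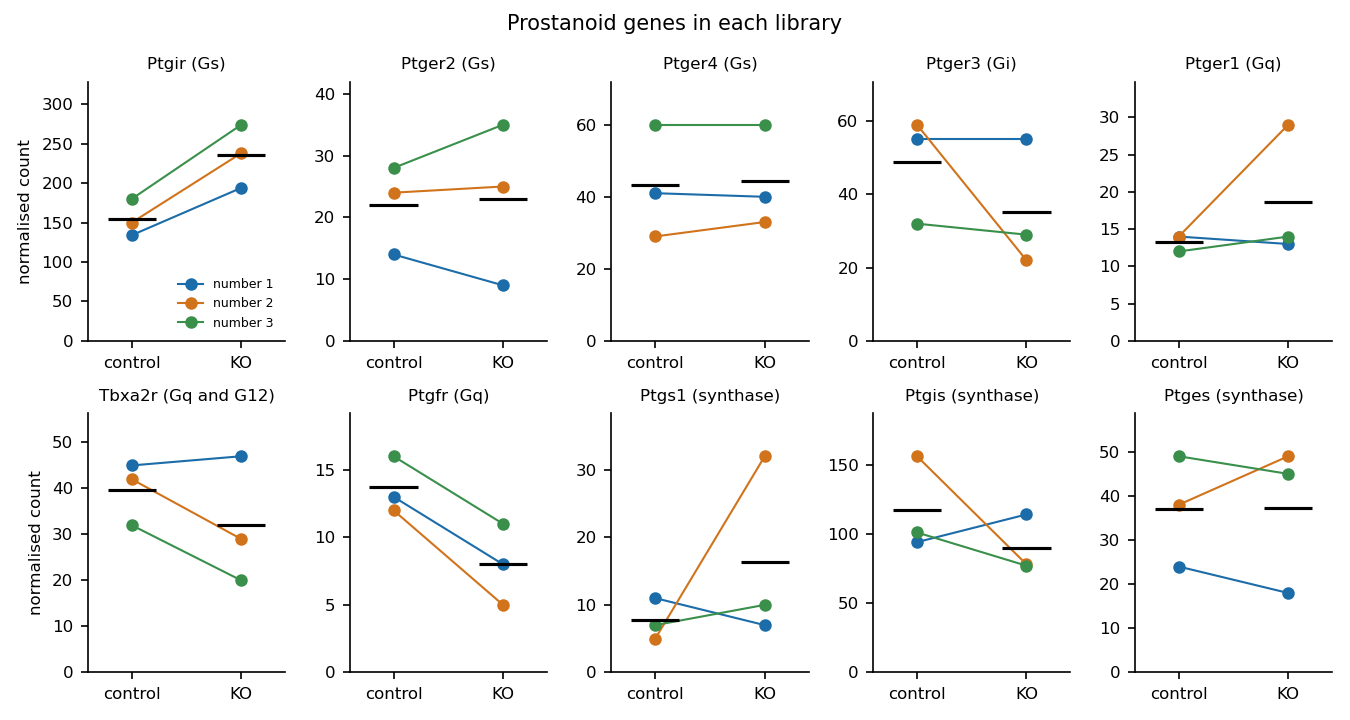
Normalised count (y axis, from 0) of each of the 10 genes in control and KO libraries (x axis), with lines joining libraries of the same number and black bars for group means. Ptgir is higher in all 3 KO libraries (194 to 274) than in any control (134 to 180), Ptgfr is lower in all 3, and Ptgs1 and Ptger1 are high in KO library 2 alone.

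All 10 genes had a mean of at least 10 over the 6 libraries and so entered the fit over 12735 genes. Of the members 4 had a mean log2 difference above 0 and 6 below, with a median of -0.06, against 6391 above and 6344 below and a median of 0.00 over all genes tested. With limma, 0 of 10 members had an adjusted p under 0.05, where 0% of all genes did, and 1 had an unadjusted p under 0.05, where 1.81% did. With the replicate number as a block, 0 members passed (0.00785% of all genes did) and 1 had an unadjusted p under 0.05 (10.2% did). Every KO library was above every control for 1 of 10 members, against 2.69% of all genes, and below for 1 of 10, against 2.21%. Since the members were chosen with this comparison known, nothing is read from these counts. By signed log2 difference, 280 of the 12735 genes were higher than Ptgir and 179 were lower than Ptgfr. Regardless of sign, 5.14% of genes had a larger difference than Ptgir and 2.58% a larger one than Ptgfr. Ptgs1, whose difference rests on KO library 2, had 137 genes higher. The place of Ptgfr is uncertain, since its KO mean was under 10 and it entered the fit through its control values.

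**Figure D2:**
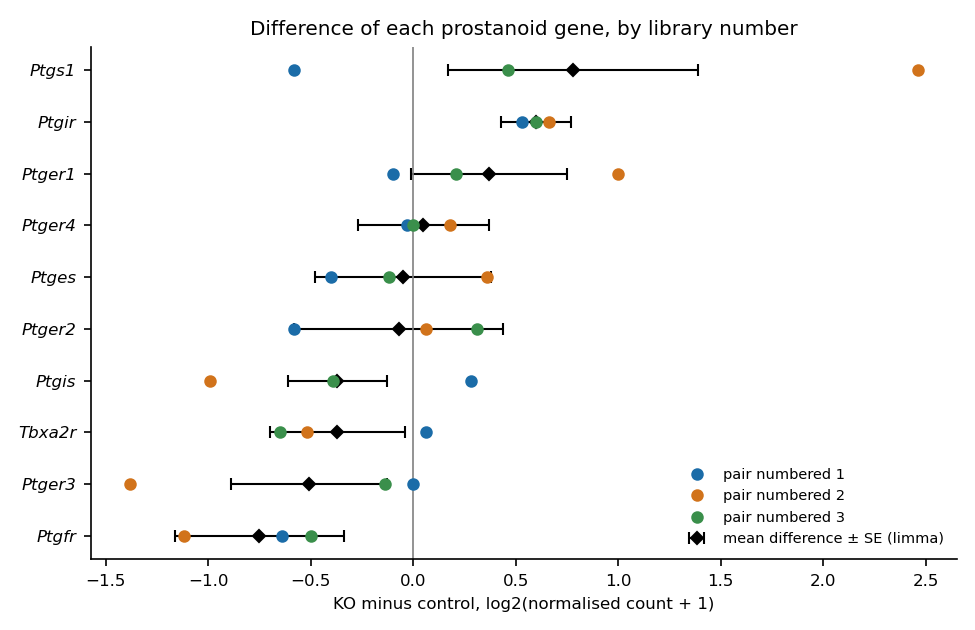
KO minus control on the log2(normalised count + 1) scale (x axis) for each gene (y axis), as points for the library pairs numbered 1, 2 and 3 and as a diamond for the mean with its standard error from limma. The 3 pairs of Ptgir lie at 0.53, 0.66 and 0.60, while those of Ptgs1 run from -0.58 to 2.46.

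Levels of different genes were compared per kilobase of annotated exon. Ptgir had the highest mean over all 6 libraries, 58.5 normalised counts per kilobase, followed by Ptgis at 40.3. In controls these 2 genes overlapped, Ptgir at 40.2, 45.0 and 54.0 and Ptgis at 36.6, 60.8 and 39.4 per kilobase. In KO libraries they did not, with Ptgir at 58.2, 71.4 and 82.2 and Ptgis at 44.4, 30.4 and 30.0. Tbxa2r came next at 10.4 to 24.5 per kilobase, below every Ptgis value. Ptger4 (8.72 to 18.0), Ptges (4.70 to 12.8) and Ptger3 (3.87 to 10.4) followed, each overlapping its neighbours in the order. Ptger2 was at 1.73 to 6.74, Ptgs1 at 1.29 to 8.24, Ptger1 at 2.20 to 5.31 and Ptgfr at 0.74 to 2.36, and their ranges overlapped. Per kilobase of coding sequence Ptgir was again first and Ptges moved from place 5 to place 2, with a coding length of 459 bases. Ptgis moved from place 2 to 3, Tbxa2r from 3 to 5, Ptger4 from 4 to 6 and Ptger3 from 6 to 4. The order under Ptgir thus depends on the length used.

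**Figure D3:**
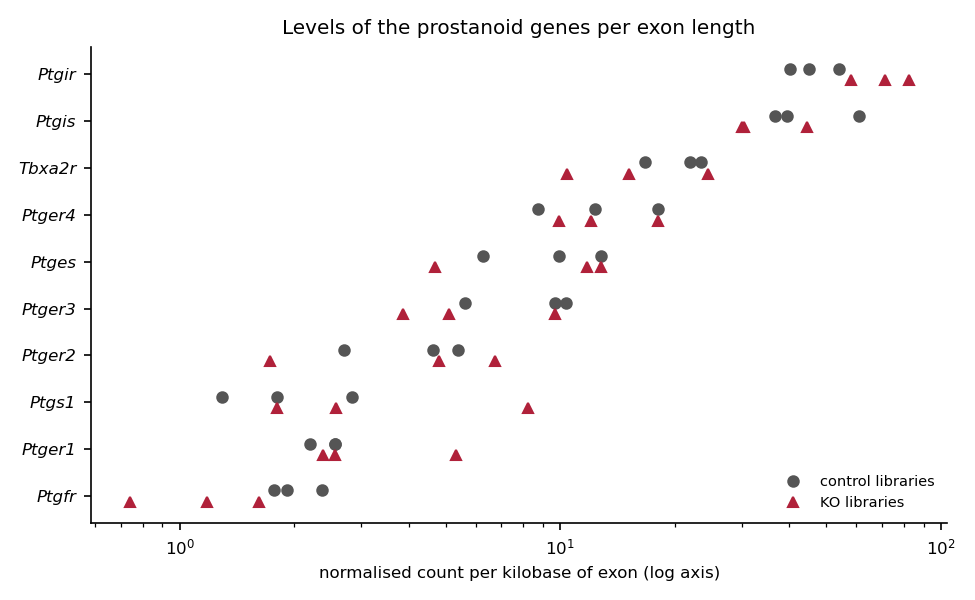
Normalised count per kilobase of exon (x axis, log scale) for each gene (y axis), with circles for control and triangles for KO libraries. Ptgir and Ptgis lie at 30.0 to 82.2 per kilobase, above all other members, and Ptgfr has the lowest mean over all 6 libraries (1.6), while in controls Ptgs1 (1.97) and Ptgfr (2.02) overlap.

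Markers of pericytes, endothelium and skeletal muscle fibres varied with the libraries. Pericyte markers were abundant in every library (Notch3 2789 to 4319), and whether they mark separate cells here was not tested. With limma 0 of the 8 pericyte, 8 endothelial and 8 skeletal muscle fibre markers passed. At an unadjusted p under 0.05 there were 0, 0 and 2, against 1.81% of all genes tested. With the replicate block 0 passed. At an unadjusted p under 0.05, 6 pericyte, 3 endothelial and 4 muscle fibre markers were then higher, as were 546 of 12735 genes tested. The 8 pericyte markers were all above 0 in mean log2 difference, and their sum read 10197, 12100, 15680 in controls versus 10875, 13784, 18088 in KO libraries. As for Ptgir, library 3 held the highest and library 1 the lowest value in each group. Estimated reads ran the other way, at 2935114, 2253883, 1556750 in controls and 2581454, 2200237, 1479598 in KO libraries. The part of depth in this shared order was not tested. Between libraries of the same number the KO pericyte sum was 1.07, 1.14 and 1.15 times the control sum, beside 1.45, 1.59 and 1.52 times for Ptgir. Per 1000 counts of pericyte markers, Ptgir read 13.1, 12.4, 11.5 in controls versus 17.8, 17.3, 15.2 in KO libraries, with no overlap between the groups. Per 1000 counts of the 10 smooth muscle markers it read 9.38, 10.3, 12.5 in controls versus 13.3, 19.4, 19.8 in KO libraries, again without overlap. The 8 endothelial markers summed to 337, 482, 656 in controls versus 389, 914, 857 in KO libraries, with no marker at 0. Against this sum the Ptgir ratio was 1.25, 0.837 and 1.17 for numbers 1, 2 and 3, and the groups overlapped on that scale. Flt1 made up 482 of the 914 in KO library 2, and against the sum without Flt1, taken after seeing the data, the ratio was 1.26, 1.09 and 1.32, still with overlapping groups. Skeletal muscle fibre markers summed to 1280, 1934, 3001 in controls versus 1823, 3859, 8389 in KO libraries, and this sum, like Ptgir, was lowest in library 1 and highest in library 3 of each group, also without Ttn. Ttn made up 5386 of the 8389 in KO library 3, and 4 of the 8 markers (Acta1, Ckm, Mylpf and Tnnt3) were instead highest in library 2 of the KO group. The part of pericyte, endothelial and muscle fibre RNA in the Ptgir result was not tested.

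**Figure D4:**
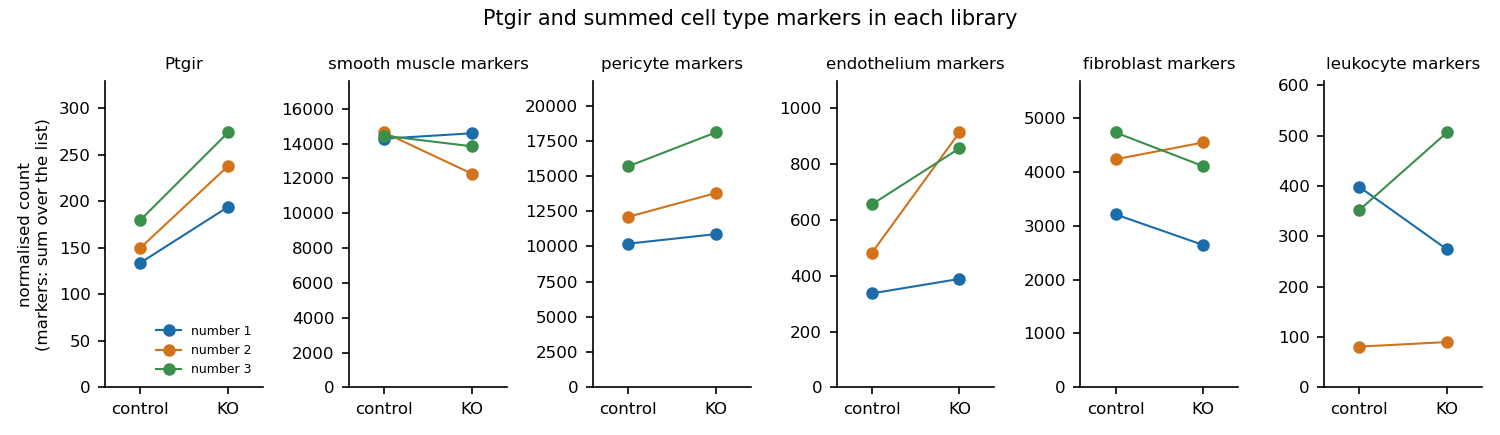
Normalised counts of Ptgir and summed counts of 5 marker lists (y axes, each from 0) in control and KO libraries (x axis), with lines joining libraries of the same number. Ptgir and the pericyte sum are lowest in library 1 and highest in library 3 of each group, and the endothelial sum is highest in KO library 2 (914).

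The members that stood out in number 2 met other marker values there. The smooth muscle markers summed to 12275 in KO library 2, the lowest of all libraries, against 14285 to 14641 in controls. All 10 had a mean log2 difference below 0, with a median of -0.11, and 0 passed with limma, nor had any an unadjusted p under 0.05. For Acta2, Des and Tagln the difference lay between -0.02 and 0, and the KO library was higher in 2 of the 3 numbers. Under the block, 0 passed, and 2 (Cnn1 and Myocd) were lower at an unadjusted p under 0.05, as were 759 of 12735 genes tested. Myocd, a coactivator of smooth muscle genes, read 619, 493, 281 in controls versus 571, 272, 252 in KO libraries. It was lower in KO library 2 than in control library 2, as were Ptger3, Tbxa2r, Ptgfr and Ptgis. The other members were higher in KO library 2. For Tbxa2r the pair numbered 3 differed more than the pair numbered 2 (-0.65 against -0.52 on the log2 scale). The part of smooth muscle RNA in these values was not tested. Fibroblast markers summed to 3207 to 4725 in controls and 2640 to 4540 in KO libraries. For Ptgs1, a gene also known from platelets and leukocytes, the leukocyte markers summed to 90 in KO library 2, near their lowest, with 3 of 8 at 0. The 5 listed platelet markers summed to 40, 13, 35 in controls versus 40, 28, 26 in KO libraries, and all 5 were higher in KO library 2 than in control library 2 (Pf4 6 against 4, Itga2b 7 against 5). The endothelial sum was at its highest there, carried by Flt1 at 482, while the other 7 endothelial markers each had a higher value in another library. The part of platelet, leukocyte and endothelial RNA in the Ptgs1 value was not tested.

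The rest of the pathway was read from a list of 27 other genes, of which 24 were in the table and 16 had a mean of at least 10. Ptgds, Pla2g4b and Pla2g10 were not analysed here. With limma 0 of 16 passed in either direction (adjusted p of 0.999 throughout). At an unadjusted p under 0.05 there were 0, against 1.81% of all genes tested. With the replicate block 0 passed, and 2 had an unadjusted p under 0.05, against 10.2% of all genes tested. The 16 genes had a median log2 difference of -0.09, with 7 above 0 and 9 below. Ptgs2, for the inducible cyclooxygenase COX-2, read 108, 123, 42 in controls versus 148, 73, 35 in KO libraries. Its spread within each group was larger than the mean difference between groups (-0.18 on the log2 scale, standard error 0.57). Ptges2 and Ptges3, for the other prostaglandin E synthases, had close group means, at 59.7 ± 0.577 against 65.3 ± 8.08 and at 92.7 ± 11.7 against 94.0 ± 7.0 (SD, n = 3 each).

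Pla2g16, for a phospholipase, had a control mean of 117 ± 12.5 and a KO mean of 111.3 ± 41.9 (SD, n = 3 each, as for the next genes). Pla2g15, for a lysosomal phospholipase, had 57.0 ± 7.0 and 56.7 ± 16.3. Akr1b3 and Cbr1, for reductases that act on prostaglandins among other substrates, had 53.3 ± 7.02 and 58.7 ± 1.53 in controls against 47.3 ± 7.23 and 69.0 ± 8.89 in KO libraries. Ptgr2, for a prostaglandin reductase, had 139 ± 10.6 and 149 ± 13.1. None of these 5 genes passed. Abcc4, for an exporter of prostaglandins and cyclic nucleotides, read 45, 47, 58 in controls versus 48, 74, 87 in KO libraries. It was higher in the KO library of each number, with a log2 difference of 0.44 and a standard error of 0.25, and did not pass (adjusted p = 0.999 with limma, 0.443 with the replicate block). Slco2a1, for the prostaglandin uptake transporter, was at 89, 134, 96 against 58, 107, 108, with overlapping groups. Ptgfrn, for a membrane protein that binds the prostaglandin F2α receptor, read 172, 217, 214 in controls versus 125, 195, 172 in KO libraries. It was lower in each number, with a log2 difference of -0.31 and a standard error of 0.19, and did not pass (adjusted p = 0.999 with limma, 0.357 with the replicate block). The remaining receptors Ptgdr and Ptgdr2, for prostaglandin D2, were at or below 8, and Tbxas1, for thromboxane synthase, was at or below 8.

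**Figure D5:**
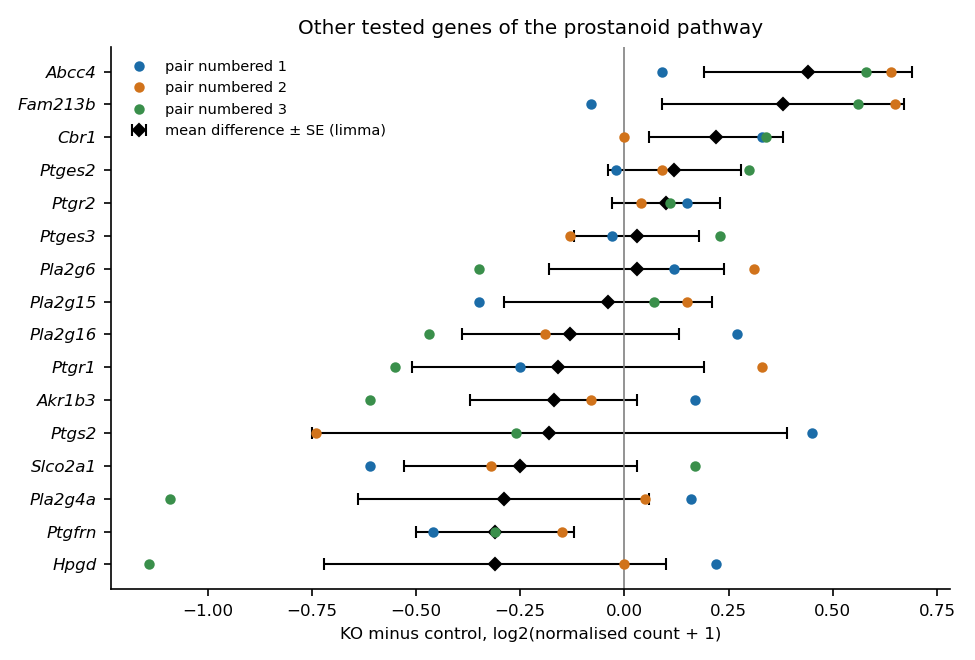
KO minus control on the log2(normalised count + 1) scale (x axis) for the 16 tested genes outside the members (y axis), with points for the library pairs numbered 1, 2 and 3 and a diamond for the mean with its standard error from limma. Abcc4 is highest at 0.44, Ptgfrn and Hpgd are lowest at -0.31, and 0 genes passed the test.

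Downstream of the receptors, 40 genes of the Gs, Gq, G12 and Gi arms were listed, 39 of them tested, and 0 passed with limma in either direction, with or without the block. Their median log2 difference was -0.02, with 18 above 0 and 21 below. At an unadjusted p under 0.05 there was 1 of the 39 (1.81% of all genes tested). With the block there were 8, 3 higher and 5 lower (10.2% of all genes tested). Without the block the smallest unadjusted p belonged to Itpr3, for an inositol trisphosphate receptor, with 35, 34, 28 in controls versus 45, 45, 43 in KO libraries (adjusted p = 0.999 with limma). Adcy4, for an adenylyl cyclase, followed at 45, 48, 56 against 46, 94, 88, and Gnaq, for the Gq α subunit, at 264, 232, 239 against 234, 211, 206. With the block it belonged to Crem, for a cAMP-responsive transcription factor, at 387, 94, 80 against 249, 66, 46, lower in each number (adjusted p = 0.142 with limma and the block, 0.999 without). Gnas, for the Gs α subunit through which the prostacyclin receptor acts, was at 768, 826, 889 against 793, 819, 996.

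For members with a mean of at least 50, the 3 genes with the most similar profile were taken by the root mean square difference in log2(value + 1) after centring, over 6 libraries and 8299 candidate genes. For Ptgir these were Pard6g, Card6 and Ednrb, at 0.0797, 0.099 and 0.113. Pard6g, the nearest, read 53, 52, 66 in controls versus 79, 85, 102 in KO libraries, without overlap, as for Ptgir. Card6 read 42, 49, 64 in controls versus 61, 84, 80 in KO libraries, with overlapping groups. Ednrb, for the endothelin B receptor, read 310, 283, 390 in controls versus 360, 480, 528 in KO libraries, also with overlap. For Ptgis they were Hyal1, C1qtnf7 and Id1, at 0.0273, 0.073 and 0.141. Hyal1, for a hyaluronidase, read 52, 85, 53 in controls versus 61, 43, 41 in KO libraries, with the same high value in control library 2. These genes were picked as the nearest of many and carry no test.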

How the data were processed

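RNA was measured in 3 control and 3 iSM-G5C-KO libraries, made from 5 ng total RNA each with a stranded low-input kit, per the labels' protocols. Tools named, without roles, per the submitters' processing notes are DESeq2 1.18.1, featureCounts 1.6.5, STAR 2.6.1d and Trimmomatic 0.39, and builds are GRCm38.p5 and mm10. The deposited values are a score: whole numbers that look like gene counts the authors divided by 1 factor per library. Depth was estimated from the spacing of low values (1 read was worth 0.755 to 1.399), and whole reads were not recovered.

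limma 3.58.1 (R 4.3.3, intensity trend, 2-sided) was fitted to log2(value + 1) for 12735 genes with a mean of at least 10, calling genes at a Benjamini-Hochberg adjusted p under 0.05. The fit was run on simulated data whose planted changes were larger than those of the members, so it does not measure power for changes of the members' size. Members, lists and alternatives were chosen with earlier results of these data known. Named are all members, pathway genes with a mean of at least 50 or a call (others as added), the 3 signalling genes with the smallest p (Gnas, and Crem after its values were seen, added) and the 3 nearest genes per member. Same-numbered libraries deviated together (correlations of 0.59, 0.31 and 0.44), so ratios and differences are also given per number. The main fit and the permutation left the numbers out, and the fit with the number as a block was an alternative. No label says what a number marks. Exon lengths came from GENCODE M21 (GRCm38), inside each gene's span in the table, and promoters from RefSeq (8 of 10 members matched). An item withheld from this text is not reported here.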

Additional observations from a re-analysis of the deposited data

How the results depend on the processing

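Over 18 alternatives, of which 15 were planned and 3 (each pair dropped in turn under the block) were chosen after seeing the data, Ptgir stayed above 0, from 0.48 to 0.73 on the log2 scale (0.71 without control library 3). The sign was also kept in every alternative that gave a value for Ptgfr (-0.99 to -0.49), Tbxa2r (-0.68 to -0.09), Ptger3 (-1.04 to -0.07), Ptgis (-0.82 to -0.06) and Ptger1 (0.02 to 0.61). Ptger2, Ptger4, Ptges and Ptgs1 changed sign in some. A mean of at least 50 left 2 members. Of 172 member values, 169 lay within 1 SD of the reported one. The SD here is each gene's spread between libraries within groups, 0.23 (Ptgir) to 0.84 (Ptgs1) on the log2 scale. It is wide for noisy genes, so Ptger3 at -1.04 against -0.51 counted as within it. The alternatives also reuse the same libraries, so the count is no measure of stability. With sample quality weights Ptgis at -0.82 and Ptgs1 at 1.66 lay outside. So did Ptgs1 at -0.06 with pair 2 dropped under the replicate block. The count of genes past the threshold was 0, and 0 whichever library was left out. It was 1 with the replicate block, 2 with sample quality weights, and dropping pair 1, 2 or 3 under the block gave 61 (21 higher, 40 lower), 1 and 0; the cause was not tested. The count among other pathway genes stayed at 0 in all 18. Gprc5c lay from -0.69 to -0.42 and never passed. The replicate block changed no other call. Without the filter the median of all genes was -0.138. Lengths of RefSeq proteins were not used; GENCODE coding lengths, added after seeing the data, kept Ptgir in place 1. Depth limits Ptgfr, Ptgs1 and Ptger1 most.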
